A study of Mus musculus with 10 samples.

Results

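The genes described here are the mouse Rnf genes, named for the RING finger of their proteins, with Rnf20, Rnf40 and Rnf212 left out. A gene was a member if its symbol was Rnf followed by a digit in either of 2 deposited RNA-seq tables. This gave 80 members of 20142 genes in all, with 79 of 20007 genes in the adult testis table and 78 of 17816 genes in the table of Sertoli cells at day 7. Sertoli cells are the somatic cells that nurse the germ cells inside the seminiferous tubules. The study asked what the loss of Rnf20, a ligase for histone H2B, changes in these cells. The day 7 table holds 2 samples labelled WT, whose genotype in the study's methods is Rnf20 Flox/Flox, and 2 samples from Amh-Rnf20-/- mice, where a Cre recombinase under the promoter of Amh, a Sertoli cell gene, cuts the floxed stretch out of Rnf20. By the methods these were adherent cells from testes of pups aged 7 days, grown in plates and passaged before use, with 3 individuals per genotype, of which 2 samples each are analysed here. The growth protocol label reads adult tissue for all 10 samples, so that the age of the day 7 samples rests on their titles and on the methods. The adult table holds 3 testis samples labelled WT and 3 labelled RNF20 conditional knockout, with no further statement of allele or age in the labels, and the methods do not describe this experiment. In what follows, day 7 controls are the samples labelled WT at day 7, and labelled knockout samples are the adult samples with the knockout label.

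RING finger proteins are mostly ubiquitin ligases. They hold a ubiquitin-loaded conjugating enzyme next to a substrate, and the ubiquitin passes to the substrate directly or, in the RING-between-RING class, by way of the ligase itself. Members differ in what they are bound to: some sit in the membranes of the endoplasmic reticulum, Golgi or endosomes, some act on chromatin and at DNA breaks, some on stalled ribosomes, and several are known from the testis, where developing germ cells remodel their chromatin, membranes and cytoplasm.

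The labels do not say that samples of a group came from separate animals, so that the p-values measure the spread between these samples. Depth was 17477268 to 17705347 counts per sample at day 7 and 15431912 to 16574144 in adult testis. Rnf20 itself was lower in both knockout samples at day 7 (FPKM 10.25 and 12.58, against 16.64 and 16.01 in the controls), without passing (log2 fold change −0.49, edgeR adjusted p = 0.222). In adult testis it was not lower under the knockout label (scaled FPKM, defined below, of 6.43, 4.67 and 5.39 in the WT samples and of 7.19, 4.27 and 6.95 in the labelled knockout samples, edgeR adjusted p = 0.688), and the groups overlapped. The adult groups differed in their cell type markers. All 10 spermatid markers, among them the protamine genes, fell, from a summed scaled FPKM of 164378 to 272209 in the WT samples to between 3.41 and 69.4 in the labelled knockout samples. Of 10 spermatocyte markers 8 fell, and all 6 Leydig cell, 6 fibroblast, 6 macrophage and 5 endothelial markers rose. Of 5 peritubular myoid markers 4 rose and Cnn1 did not pass. The 10 spermatogonium markers were mixed, since 5 fell (Gfra1, Ddx4, Sohlh1, Nanos3 and Dmrtb1), Zbtb16 and Kit rose and 3 did not pass. Of 15 Sertoli markers 7 rose and 1 fell. The first labelled knockout sample stood apart from the other two, with a chi-square per degree of freedom of 88.1 and 118 against them, where they differed from each other by 21.4. Its summed spermatocyte markers were 9.95, against 232 and 296. In bulk tissue, fewer cells of a type and less RNA per cell cannot be told apart, and the part that cell makeup had in the results below was not tested. The day 7 samples, labelled Sertoli, also held strong signal of markers listed for other cells. Their 15 Sertoli markers summed to a scaled FPKM of 1830 and 1646 in the controls and of 988 and 1425 in the knockout samples. The 5 peritubular myoid markers summed to 1927 and 1819 in the controls and to 3484 and 3521 in the knockout samples, and the 6 fibroblast markers to 2129 and 2198 and to 3985 and 3342. Both sums were above the Sertoli sum in every day 7 sample. Sums over different genes do not rank amounts of cells, and which cells expressed these markers was not tested.

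In adult testis 72 of the 79 members had enough signal to be tested, meaning that 3 or more samples reached an FPKM (fragments per transcript length and library size) of 0.5. Of these, 38 fell and 22 rose at an adjusted p-value under 0.05, and 12 passed in neither direction. These 60 members were 83.3% of those tested, where 81.5% of all genes passed (82.6% at an unadjusted p under 0.05). The share that fell was 52.8%, where 40.6% of all 15919 genes tested fell, and the share that rose was 30.6%, against 40.9% of all genes. The groups of members below were small and some share members, and their counts stand beside these shares of all genes. All p-values called edgeR adjusted p are from edgeR's quasi-likelihood test on counts, with Benjamini-Hochberg adjustment over all genes tested. The median log2 fold change, labelled knockout over WT, was −0.62 over the members and 0.01 over all genes tested. Levels per sample are FPKM divided by the sample's TMM factor (scaled FPKM below), which puts the adult samples on the scale of the test. That scale matters here, since scaling by total counts moved the median of all genes by 0.86, to 0.87, and that of the members to 0.24, with 31 members then called higher and 23 lower. With total-count scaling the share of members lower was 31.9%, near the 30% of all genes, and the share higher was 43.1% against 54.1%. In 7 other fits (RLE scaling, total-count scaling, DESeq2, limma with either pseudocount, a replicate block and no filter on low values), 23 of the 38 falls and 18 of the 22 rises were called in the same direction each time. Rnf122 and Rnf150, among the 18, were too low to be tested under a stricter filter, a mean FPKM of at least 1. Rnf114 and Rnf146 were called lower after TMM scaling and higher after total-count scaling and in both limma fits, which used the deposited FPKM. Falls smaller than the 0.86 shift, such as that of Rnf14, are not falls on the total-count scale. Without the first labelled knockout sample 40 members fell and 24 rose, 54.8% and 32.9% of those tested, against 41.1% and 45% of all genes. Of the 60 calls 9 were lost in at least 1 of the 6 fits that left out a sample. Those of Rnf14, Rnf138rt1 and Rnf208 were lost in 5 of these fits, that of Rnf187 in 4 and those of Rnf111, Rnf169 and Rnf212b in 3, while Rnf146 and Rnf157 were lost only without the third labelled knockout sample.

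**Figure D1:**
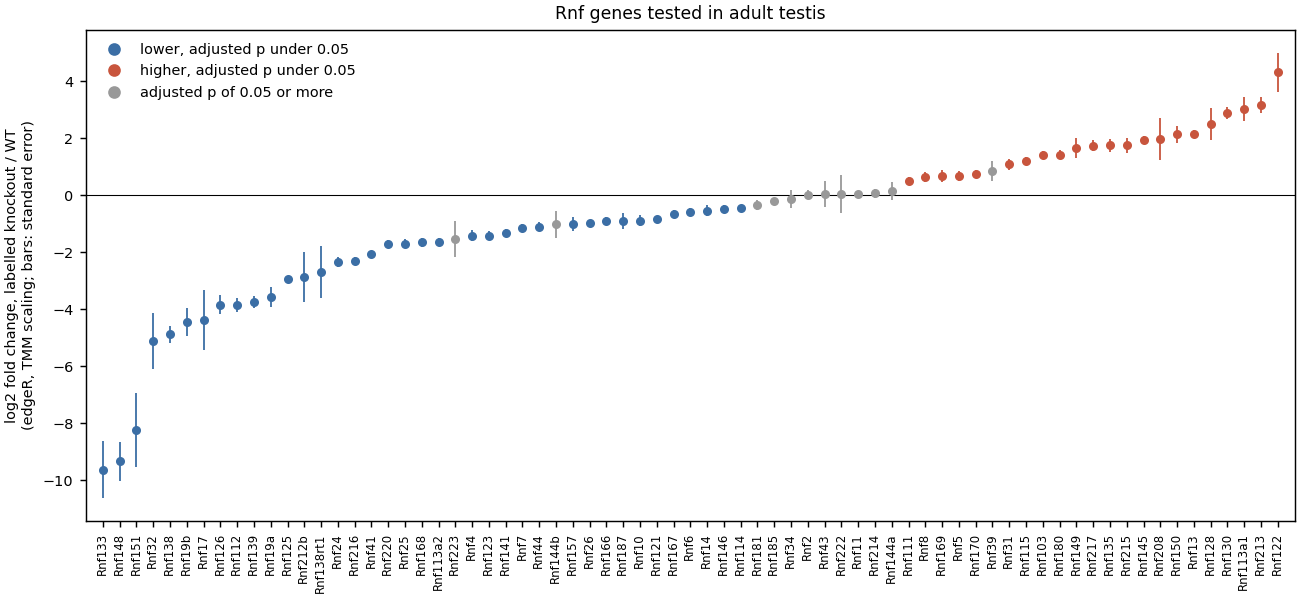
Log2 fold change (labelled knockout over WT, y axis) of 71 of the 72 Rnf genes tested in adult testis, ordered from the largest fall to the largest rise along the x axis, with standard errors from edgeR as bars. Blue points passed as lower, red points as higher and grey points as neither; Rnf133, Rnf148 and Rnf151 lie apart at the lower end, below −8.

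On counts scaled by TMM, the WT and the labelled knockout samples lay fully apart in 63 of the 72 members, 87.5% against 85.5% of all genes, with 41 members lower and 22 higher in the labelled knockout samples. Among all genes tested these shares were 43.1% lower and 42.4% higher, against 56.9% and 30.6% of the members. Under the study's stricter rule, more than a log2 unit of change with an adjusted p below 0.001, 22 members were lower and 11 higher, against 23.7% and 23% of all genes, and 45.8% of the members passed it where 46.7% of all genes did. Whatever the p, 65.3% of the members changed by more than 1 on the log2 scale, where 71.3% of all genes did. In counts, the members together made up 0.748%, 0.773% and 0.811% of the WT libraries and 0.361%, 0.450% and 0.470% of the labelled knockout libraries. The 10 members with the largest falls held 46.4%, 48.2% and 46.1% of the members' counts in the WT samples and 3.22%, 6.18% and 6.84% in the labelled knockout samples. The other 69 members took 0.401%, 0.400% and 0.438% of the WT libraries and 0.350%, 0.422% and 0.438% of the labelled knockout libraries. Those 10 genes were chosen by their falls in the same samples, so a drop in their share was set by that choice.

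The largest falls were among members known from germ cells. All 9 members listed as germ cell-linked were tested and all 9 fell, at a median log2 fold change of −4.38, where 40.6% of all genes fell (30% with total-count scaling). The list was drawn up with earlier results of these data known, so that its count of falls may partly reflect the choice of members. In all of the 7 other fits 7 of the 9 were called lower, the exceptions being Rnf212b and Rnf138rt1. Rnf133 and Rnf148 encode ligases of the PA-TM-RING class, which cross a membrane and carry a protease-associated domain facing away from the cytosol, and both are known for expression in testis. They are neighbours on chromosome 6 of GRCm38.p6, at chr6:23648869-23650305 and chr6:23653895-23655136, 3589 bases apart, and both lie inside the span of Cadps2. Rnf151, at chr17:24715839-24718057, encodes a protein linked to the forming acrosome. The 250 bases before the RefSeq start of these 3 genes (RefSeq, GRCm38.p6, all minus strand) are shown because they fell the most, followed by those of Rnf130 (plus strand), a PA-TM-RING member that rose. Capitals mark TGACG, the core of the cAMP response element, or CCAAT, on either strand, so that ATTGG is CCAAT read from the other strand. The windows are chr6:23650306-23650555, chr6:23655137-23655386, chr17:24718058-24718307 and chr11:50025081-50025330.
Rnf133: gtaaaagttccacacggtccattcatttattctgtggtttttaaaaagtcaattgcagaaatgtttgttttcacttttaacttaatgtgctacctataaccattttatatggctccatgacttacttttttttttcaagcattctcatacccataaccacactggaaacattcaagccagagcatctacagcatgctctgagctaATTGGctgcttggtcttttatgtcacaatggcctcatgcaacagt
Rnf148: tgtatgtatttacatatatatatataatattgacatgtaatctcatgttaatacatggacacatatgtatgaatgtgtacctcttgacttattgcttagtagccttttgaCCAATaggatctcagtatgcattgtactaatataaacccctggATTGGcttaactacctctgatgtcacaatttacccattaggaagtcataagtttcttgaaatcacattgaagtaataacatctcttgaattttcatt
Rnf151: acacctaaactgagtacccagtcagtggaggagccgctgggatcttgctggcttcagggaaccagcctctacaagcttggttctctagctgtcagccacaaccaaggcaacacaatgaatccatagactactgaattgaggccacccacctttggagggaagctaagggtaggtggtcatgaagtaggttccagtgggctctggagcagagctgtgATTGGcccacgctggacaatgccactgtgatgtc
Rnf130: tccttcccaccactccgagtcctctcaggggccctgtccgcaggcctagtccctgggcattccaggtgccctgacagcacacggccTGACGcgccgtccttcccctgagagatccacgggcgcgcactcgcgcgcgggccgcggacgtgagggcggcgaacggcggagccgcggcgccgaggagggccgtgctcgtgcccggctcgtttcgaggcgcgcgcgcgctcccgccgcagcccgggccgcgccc

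The first 3 windows hold CCAAT 1, 2 and 1 times and TGACG not at all, and that of Rnf130 holds TGACG 1 time and CCAAT not at all. With 50 bases after the start added, the GC content of the windows was 36.3% for Rnf133, 30.7% for Rnf148 and 53.7% for Rnf151, with 1, 0 and 3 CpG dinucleotides. The window of Rnf130 had a GC content of 78.0% and 49 CpG dinucleotides, where the median of all 27025 promoters was 52.7% and 7.0. Of all promoters of that length, 37.9% hold CCAAT and 21.0% hold TGACG on either strand, and of those of genes tested in adult testis 39.1% and 28.3%. A comparison of motifs between the members that fell and the rest is void, since RefSeq windows were matched for only 63 of the 80 members.

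Rnf151 was the most highly expressed member in adult WT testis, and its scaled FPKM was 623, 751 and 622 in the WT samples and 0.0549, 3.83 and 2.69 in the labelled knockout samples (log2 fold change −8.24, standard error 1.29, edgeR adjusted p = 0.00129). The first labelled knockout sample held a single count of it, and the other two held 78 and 55. For Rnf133 the levels were 325, 350.0 and 308 in the WT samples and 0, 0.786 and 0.431 in the labelled knockout samples, from 0, 18 and 10 counts in the latter (log2 fold change −9.62, standard error 1.01, edgeR adjusted p = 0.000235). For Rnf148 they were 132, 142 and 134 in the WT samples and 0, 0.415 and 0.184 in the labelled knockout samples, from 0, 9 and 4 counts (log2 fold change −9.32, standard error 0.68, edgeR adjusted p = 6.84e-05). All 3 genes were thus at or near 0 in the first labelled knockout sample and present at a trace in the other two, the order in which spermatid markers summed to 3.41, 69.4 and 36.7. Without that sample the log2 fold changes were −7.54 for Rnf151, −8.93 for Rnf133 and −8.65 for Rnf148, and without the second they were −8.90, −10.48 and −10.35.

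Rnf32, known for expression during spermatogenesis, had a scaled FPKM of 348, 407 and 374 in the WT samples and 0.863, 12.8 and 17.4 in the labelled knockout samples (log2 fold change −5.12, standard error 0.97, edgeR adjusted p = 0.00301). Rnf17, a Tudor domain protein of germ cells that is needed for spermatid development, had 61.9, 70.8 and 79.6 in the WT samples and 0.243, 3.93 and 5.97 in the labelled knockout samples (log2 fold change −4.38, standard error 1.04, edgeR adjusted p = 0.00792). In both genes the first labelled knockout sample lay far below the other two, and all 3 lay below every WT sample. With that sample left out, Rnf32 was at −4.46 and Rnf17 at −3.70 on the log2 scale. Rnf212b, a relative of a crossover factor of meiosis, showed the same order at a lower level, with 9.86, 9.40 and 7.51 in the WT samples and 0.0549, 1.76 and 1.76 in the labelled knockout samples (log2 fold change −2.87, standard error 0.87, edgeR adjusted p = 0.0213). Rnf138rt1, a gene on chromosome X named after Rnf138, had 36.4, 36.2 and 31.8 in the WT samples and 0.314, 6.99 and 8.80 in the labelled knockout samples (log2 fold change −2.69, standard error 0.91, edgeR adjusted p = 0.0317). The sequences of Rnf138rt1 and Rnf138 were not compared here. Reads may have been split between these genes, so that their values are uncertain. Without the first labelled knockout sample Rnf212b was at −2.19 and Rnf138rt1 at −2.02. Rnf216, a RING-between-RING ligase, fell from 44.6, 50.7 and 56.4 to 8.20, 8.35 and 8.74 (−2.30, edgeR adjusted p = 4.56e-05), with nearly equal values in the 3 labelled knockout samples. Rnf141, the other member of this list, is described with the transcript lengths below.

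**Figure D2:**
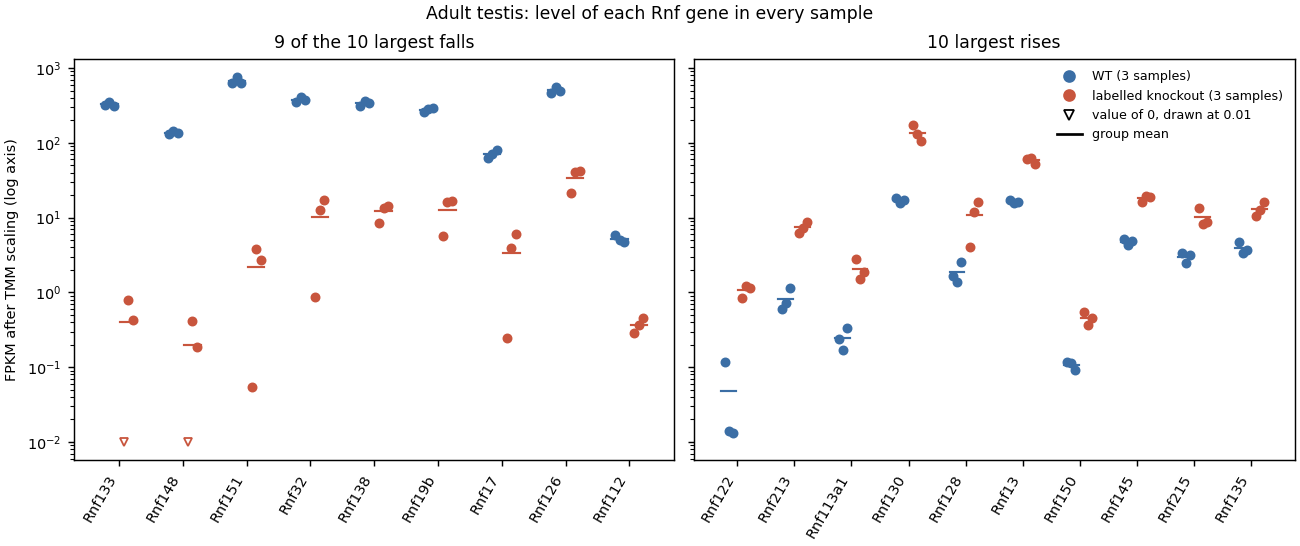
Scaled FPKM (log axis) in every adult sample for 9 of the 10 largest falls (left) and the 10 largest rises (right) among members with an adjusted p under 0.05 and groups that did not overlap, with WT samples in blue, labelled knockout samples in red and lines at group means. Open triangles stand for a value of 0, drawn at 0.01. The falls start from WT levels of up to 751, and the rises start lower, from WT levels of at most 18.3.

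The PA-TM-RING members went both ways. Of 9 tested, 5 rose, 3 fell and Rnf43 did not pass, at a median log2 fold change of 1.66. Rnf130, related to the fly ligase goliath, had a scaled FPKM of 18.3, 15.5 and 17.5 in the WT samples and 172, 131 and 107 in the labelled knockout samples (log2 fold change 2.88, standard error 0.21, edgeR adjusted p = 6.91e-05), and it moved from place 38 to place 2 in the order of members by mean FPKM. Rnf13, a ligase of endosomal and lysosomal membranes, had 17.1, 15.6 and 15.9 in the WT samples and 61.1, 63.1 and 51.5 in the labelled knockout samples (log2 fold change 2.17, standard error 0.13, edgeR adjusted p = 4.25e-05). Rnf128, known as GRAIL from T cell anergy, had 1.68, 1.38 and 2.57 in the WT samples and 4.06, 12.0 and 16.0 in the labelled knockout samples (log2 fold change 2.50, standard error 0.55, edgeR adjusted p = 0.00581), with the first labelled knockout sample lowest of the 3 but above the WT samples. Rnf150 was low in all samples, at 0.118, 0.113 and 0.0922 in the WT samples and 0.549, 0.371 and 0.459 in the labelled knockout samples (log2 fold change 2.14, standard error 0.29, edgeR adjusted p = 0.000697). The size of its rise depended on the fit, from 0.58 in limma on log2(FPKM + 1) to 2.98 with total-count scaling. Rnf149 rose from 6.60, 6.33 and 6.44 to 10.98, 23.7 and 26.9 (1.66, edgeR adjusted p = 0.00428). Among those that fell, Rnf167, a lysosomal ligase, changed least (−0.66, edgeR adjusted p = 0.00436) and was not called in all of the 7 other fits, and the other two were Rnf133 and Rnf148. Rnf43, which removes Wnt receptors from the cell surface, had 1.18, 0.957 and 1.09 in the WT samples and 0.447, 1.18 and 1.55 in the labelled knockout samples (log2 fold change 0.04, standard error 0.46, edgeR adjusted p = 0.94), and its groups overlapped, with the first labelled knockout sample below the WT samples, the second within their range and the third above it.

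Members that act on chromatin, at DNA breaks or on SUMO-marked proteins were split. Of 9 tested, 4 rose, 4 fell and Rnf2 did not pass, at a median log2 fold change of 0.02. Rnf2 encodes RING1B, the catalytic subunit of Polycomb repressive complex 1, and its scaled FPKM was 14.97, 16.6 and 19.6 in the WT samples and 15.1, 17.7 and 18.8 in the labelled knockout samples (log2 fold change 0.02, standard error 0.15, edgeR adjusted p = 0.926). The labelled knockout values lay within the WT range, although Rnf2 was called higher, by 0.88 on the log2 scale, after total-count scaling, where the median gene was 0.87 higher. Rnf8 and Rnf168 act in sequence at DNA double-strand breaks, where Rnf8 starts and Rnf168 extends the ubiquitin marks on histones, and they moved apart. Rnf8 had 7.18, 6.27 and 5.50 in the WT samples and 10.8, 8.92 and 9.95 in the labelled knockout samples (log2 fold change 0.65, standard error 0.16, edgeR adjusted p = 0.0106). Rnf168 had 11.01, 11.8 and 12.1 in the WT samples and 3.11, 3.48 and 4.52 in the labelled knockout samples (log2 fold change −1.65, standard error 0.17, edgeR adjusted p = 0.000217). Their groups did not overlap in either gene. Rnf169, which binds the marks made by Rnf168, rose (0.68, edgeR adjusted p = 0.0221), but not in all of the 7 other fits.

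Rnf138, a ligase recruited to DNA breaks, was among the 5 highest members in WT testis, with a scaled FPKM of 314, 364 and 345 in the WT samples and 8.56, 13.3 and 14.4 in the labelled knockout samples (log2 fold change −4.87, standard error 0.30, edgeR adjusted p = 4.28e-05). Rnf4, the SUMO-targeted ubiquitin ligase, had 95.5, 113 and 86.2 in the WT samples and 31.5, 34.7 and 42.1 in the labelled knockout samples (log2 fold change −1.42, standard error 0.19, edgeR adjusted p = 0.000599). Rnf111, known as Arkadia, which also binds SUMO, rose from 4.68, 4.59 and 4.99 to 5.49, 6.84 and 7.17 (0.49, edgeR adjusted p = 0.0172), though not in all of the 7 other fits. The spliceosome-associated Rnf113a1 and its relative Rnf113a2 moved in opposite directions. Rnf113a1, on chromosome X, had 0.237, 0.169 and 0.329 in the WT samples and 2.79, 1.53 and 1.89 in the labelled knockout samples, from 3, 2 and 4 and from 56, 33 and 41 counts (log2 fold change 3.02, standard error 0.43, edgeR adjusted p = 0.000808). Its rise was 1.65 in limma on log2(FPKM + 1) and 3.85 with total-count scaling. Rnf113a2, on chromosome 12 inside the span of Bbof1, had 31.1, 37.1 and 30.4 in the WT samples and 10.8, 10.2 and 10.8 in the labelled knockout samples (log2 fold change −1.64, standard error 0.13, edgeR adjusted p = 9.08e-05). In the WT samples Rnf113a2 was the higher of the pair per length, and it stayed the higher in the labelled knockout samples. The sequences of this pair were not compared either, the span of Rnf113a1 overlaps that of Ndufa1, and the counting of shared reads was not given in the sources used here.

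The RING-between-RING members take the ubiquitin onto themselves before passing it on. Of 8 tested, 4 fell, 2 rose and Rnf144a and Rnf144b did not pass, at a median log2 fold change of −0.78. Rnf19b, known from natural killer cells, had a scaled FPKM of 261, 285 and 288 in the WT samples and 5.61, 16.0 and 16.8 in the labelled knockout samples (log2 fold change −4.44, standard error 0.48, edgeR adjusted p = 0.000267). Its relative Rnf19a, known as dorfin, fell from 195, 206 and 236 to 10.7, 20.1 and 23.5 (−3.55, edgeR adjusted p = 0.00019), so that both members of the pair fell by more than 3 on the log2 scale. Rnf31 encodes HOIP, the catalytic subunit of the linear ubiquitin assembly complex, and had 2.25, 3.57 and 2.96 in the WT samples and 6.61, 5.77 and 6.20 in the labelled knockout samples (log2 fold change 1.08, standard error 0.20, edgeR adjusted p = 0.00288). Rnf217 rose from 1.71, 1.65 and 1.65 to 4.498, 5.96 and 6.25 (1.74, edgeR adjusted p = 0.000318). Rnf14, which binds the androgen receptor and acts on stalled ribosomes, had 23.3, 26.3 and 28.8 in the WT samples and 14.8, 20.5 and 21.7 in the labelled knockout samples (log2 fold change −0.54, standard error 0.18, edgeR adjusted p = 0.0308). All 3 of its labelled knockout values lay below the WT values, but the direction turned with total-count scaling (0.33) and in limma on log2(FPKM + 0.1) (0.38), and the edgeR adjusted p was 0.0589 to 0.0908 in 5 of the 6 fits that left out a sample. Rnf144b had 9.70, 8.38 and 9.89 in the WT samples and 1.71, 4.86 and 7.13 in the labelled knockout samples (log2 fold change −1.02, standard error 0.48, edgeR adjusted p = 0.0903), with the first labelled knockout sample well below the rest. It was called lower with RLE scaling and in DESeq2 (−1.24 in each). Rnf144a was called higher with total-count scaling (1.02) and in limma (0.94 and 0.85).

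Of the other membrane-anchored members, most of them in the endoplasmic reticulum, 11 were tested, 6 rose, 4 fell and Rnf185 did not pass, at a median log2 fold change of 0.68. Rnf139 and Rnf145, ligases that carry a sterol-sensing domain and act on cholesterol synthesis, moved in opposite directions. Rnf139 had a scaled FPKM of 144, 147.6 and 188 in the WT samples and 12.8, 12.0 and 10.9 in the labelled knockout samples (log2 fold change −3.75, standard error 0.21, edgeR adjusted p = 3.55e-05). Rnf145 had 5.20, 4.25 and 4.81 in the WT samples and 16.0, 19.7 and 18.8 in the labelled knockout samples (log2 fold change 1.94, standard error 0.14, edgeR adjusted p = 6.88e-05). Rnf139 was the higher of the pair in every WT sample and Rnf145 in every labelled knockout sample. Rnf122 had the largest rise in edgeR with TMM scaling, with 0.118, 0.0141 and 0.0132 in the WT samples and 0.832, 1.22 and 1.16 in the labelled knockout samples, but it rested on 8, 1 and 1 counts in the WT samples and 87, 138 and 131 in the labelled knockout samples (log2 fold change 4.31, standard error 0.69, edgeR adjusted p = 0.00141). Its log2 fold change was 5.92 without the first WT sample, and in limma it was 3.53 with a pseudocount of 0.1 and 1.23 with a pseudocount of 1, below the 3.82 and 3.73 of Rnf130. Rnf5 (0.68, edgeR adjusted p = 0.0109), which marks misfolded proteins for degradation, and Rnf170 (0.76, edgeR adjusted p = 0.00172), which acts on inositol trisphosphate receptors, rose by less, as did Rnf103 (1.41, edgeR adjusted p = 0.000271) and Rnf180 (1.41, edgeR adjusted p = 0.000315). Rnf24 (−2.34, edgeR adjusted p = 6.72e-05), Rnf26 (−0.98, edgeR adjusted p = 0.000521) and Rnf121 (−0.83, edgeR adjusted p = 0.000672) fell. Rnf5 was not called with RLE scaling or in DESeq2, and Rnf26 and Rnf121 were not called with total-count scaling or in either limma fit.

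Innate immune members included 5 that rose and 3 that fell of 8 tested, at a median log2 fold change of 1.14, where 40.9% of all genes rose and 40.6% fell. Rnf213, a very large ligase with an ATPase core that is linked to moyamoya disease and interferon, had a scaled FPKM of 0.605, 0.717 and 1.146 in the WT samples and 6.15, 7.30 and 8.69 in the labelled knockout samples (log2 fold change 3.16, standard error 0.29, edgeR adjusted p = 0.00015). Rnf135, known as Riplet, which activates the RNA sensor RIG-I, had 4.69, 3.32 and 3.65 in the WT samples and 10.6, 12.6 and 15.9 in the labelled knockout samples (log2 fold change 1.74, standard error 0.23, edgeR adjusted p = 0.00058). Rnf125, which acts against the same sensor, fell from 23.1, 22.5 and 23.5 to 2.72, 3.002 and 3.40 (−2.95, edgeR adjusted p = 2.79e-05). Thus the ligases known for opposite actions on RIG-I moved in opposite directions, with no overlap of the groups in either. Rnf115 rose (1.203, edgeR adjusted p = 0.00021), and Rnf166 (−0.91, edgeR adjusted p = 0.00127) and Rnf114 (−0.44, edgeR adjusted p = 0.00826) fell, the former not called with total-count scaling or in either limma fit and the latter with its direction turned under total-count scaling. The 6 macrophage markers summed to 13.1 to 17.6 in the WT samples and to 135 to 211 in the labelled knockout samples, and their part in these rises was not tested.

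Of the members in Wnt, TGF-beta and BMP signalling, 5 were tested, 1 rose, 2 fell and 2 did not pass. The rise was that of Rnf111. Rnf220 fell from 90.3, 107 and 94.0 to 32.7, 33.5 and 28.8 (−1.71, edgeR adjusted p = 9.1e-05), and Rnf146, which marks axin for degradation, from 18.2, 21.6 and 20.4 to 15.1, 15.2 and 13.1 (−0.47, edgeR adjusted p = 0.0127), though higher under total-count scaling. Rnf11, a small ligase of endosomes, had 29.9, 32.3 and 34.7 in the WT samples and 35.0, 33.7 and 31.9 in the labelled knockout samples (log2 fold change 0.05, standard error 0.11, edgeR adjusted p = 0.679), and Rnf43 did not pass either. Rnf11 was called higher in limma (0.91 and 0.88) and with total-count scaling (0.91), where the median gene was 0.87 higher. The 3 members that act at ribosomes fell, where 40.6% of all genes did, namely Rnf10 (−0.89, edgeR adjusted p = 0.00482), Rnf14 and Rnf25 (−1.70, edgeR adjusted p = 0.000137), and so did the 3 that are known to bind the androgen receptor, namely Rnf4, Rnf6 (−0.58, edgeR adjusted p = 0.00417) and again Rnf14, whose direction turned with the scaling. Of these 5 members, only Rnf4 and Rnf25 were called lower in all of the 7 other fits, and Rnf6, Rnf10 and Rnf14 were not called lower with total-count scaling or in either limma fit.

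Of the 20 members in none of these groups 17 were tested, 9 fell, 2 rose and 6 did not pass. Rnf126, which works with BAG6 in the disposal of mislocalised proteins, was the second most highly expressed member in WT testis and had a scaled FPKM of 463, 551 and 496 in the WT samples and 21.1, 40.4 and 41.4 in the labelled knockout samples (log2 fold change −3.84, standard error 0.33, edgeR adjusted p = 0.000116). Its first labelled knockout sample was again the lowest. Rnf112, better known from brain, had 5.77, 5.09 and 4.77 in the WT samples and 0.283, 0.371 and 0.452 in the labelled knockout samples (log2 fold change −3.84, standard error 0.25, edgeR adjusted p = 5.21e-05). In limma its fall was smaller, at −2.75 on log2(FPKM + 0.1) and −1.70 on log2(FPKM + 1). Rnf41, Rnf123, Rnf7, Rnf44, Rnf157 and Rnf187 also fell, with log2 fold changes between −2.07 and −0.90, the last 4 not in all of the 7 other fits. Rnf7 is a subunit of cullin ligases and went from 172, 189 and 160.1 to 77.7, 77.9 and 81.1 (−1.14, edgeR adjusted p = 0.000275). Rnf215 rose, with 3.39, 2.50 and 3.12 in the WT samples and 13.5, 8.18 and 8.82 in the labelled knockout samples (log2 fold change 1.75, standard error 0.26, edgeR adjusted p = 0.00105). Rnf208 rose as well (1.96, edgeR adjusted p = 0.0448), though not in all of the 7 other fits, and its first labelled knockout sample, at 1.19, lay within the WT range of 0.606 to 1.70. Of those that did not pass, Rnf34, which binds caspases, had 52.2, 52.1 and 53.7 in the WT samples and 26.4, 53.7 and 62.9 in the labelled knockout samples (log2 fold change −0.14, standard error 0.32, edgeR adjusted p = 0.684), with the first labelled knockout sample alone below the WT samples. Rnf39 lay higher in every labelled knockout sample, at 0.329, 0.295 and 0.198 in the WT samples and 0.455, 0.578 and 0.459 in the labelled knockout samples, without passing (edgeR adjusted p = 0.0724). It was called higher with total-count scaling (1.68) and in limma (1.35 and 0.47). Rnf222 and Rnf223 were low and overlapped between the groups, though Rnf223 was called lower with RLE scaling and in DESeq2 (−1.71 in each).

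Among the members that fell, the first labelled knockout sample was the lowest of the 3 in 25 of 38, and among those that rose it was the lowest in 11 of 22. The order of the members by level differed between the groups. In the WT samples 15 members had a mean scaled FPKM of 100 or more, led by Rnf151, Rnf126, Rnf32, Rnf138 and Rnf133. In the labelled knockout samples only Rnf181 and Rnf130 did, and Rnf181 was the only member at that level in both groups. Rnf181, a small RING-H2 ligase, had 283, 309 and 284 in the WT samples and 249.2, 304 and 287 in the labelled knockout samples (log2 fold change −0.34, standard error 0.17, edgeR adjusted p = 0.102). Its scaled FPKM overlapped between the groups, while its scaled counts did not. It was called higher with total-count scaling (0.52) and in limma (0.79 with either pseudocount), and lower with RLE scaling and in DESeq2 (−0.54 in each). Its span on chromosome 6 overlaps that of Tmem150a, and its transcript length differed between the groups.

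A count divided by the FPKM of the same sample gives the transcript length that the estimate used, averaged over the gene's transcripts. A sample was read for this length where the gene's count reached 20 and its FPKM 0.5, and 63 members in adult testis were compared. Some of these lacked a length in a sample. For Rnf17, Rnf112, Rnf138rt1, Rnf151 and Rnf212b this was the first labelled knockout sample, and for Rnf213 the first WT sample. Overlap was judged on the samples that were read. The implied length was longer in the labelled knockout samples by more than 0.5 on the log2 scale, with no overlap, in Rnf141 and Rnf214. It was shorter by that much in no member. That is 3.17% of the members longer, where 1.95% of 12129 genes were longer and 0.412% shorter. Rnf141, known from spermatogenesis, had implied lengths of 1017, 942 and 998 bases in the WT samples and of 3663, 3645 and 3425 bases in the labelled knockout samples. In GENCODE its 8 coding transcripts run from 317 to 4032 bases. In day 7 Sertoli cells the lengths were 2779 and 2575 bases in the controls and 3019 and 3347 bases in the knockout samples, all above the adult WT values and below the adult labelled knockout values. The gene's span on chromosome 7 overlaps that of Ampd3, and how the counting treated strand was not given in the sources used here.

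For Rnf141 the size of the fall therefore depended on the unit. Its counts were 1154, 1145 and 1304 in the WT samples and 857, 856 and 826 in the labelled knockout samples (log2 fold change −1.31, standard error 0.12, edgeR adjusted p = 0.000126), while its scaled FPKM was 89.9, 104 and 106 in the WT samples and 11.5, 10.7 and 11.03 in the labelled knockout samples, a log2 ratio of means of −3.17. Rnf214 had implied lengths of 4661, 4559 and 4823 bases in the WT samples and of 8243, 6889 and 7713 bases in the labelled knockout samples. These lengths are above the longest coding transcript in GENCODE, of 3964 bases, and the transcripts that the authors counted on are not used here. Its counts did not pass (log2 fold change 0.07, standard error 0.17, edgeR adjusted p = 0.723), and its scaled FPKM was 7.79, 8.51 and 6.25 in the WT samples and 5.31, 4.93 and 4.23 in the labelled knockout samples, lower in all 3 labelled knockout samples. With total-count scaling its counts were called higher (0.92). Rnf13 and Rnf216 were longer by 0.31 and 0.29 on the log2 scale, and Rnf181 and Rnf185 shorter by 0.28 and 0.20, again without overlap. For Rnf181 the lengths were 1410, 1404 and 1453 bases in the WT samples and 1170, 1168 and 1174 bases in the labelled knockout samples, and the day 7 samples were at 1153 to 1163 bases, near the latter. At day 7 none of 62 members differed by more than 0.5 between the groups, the largest log2 ratio being 0.25 for Rnf141. None of 11901 genes differed by more than 0.5 with no overlap.

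**Figure D3:**
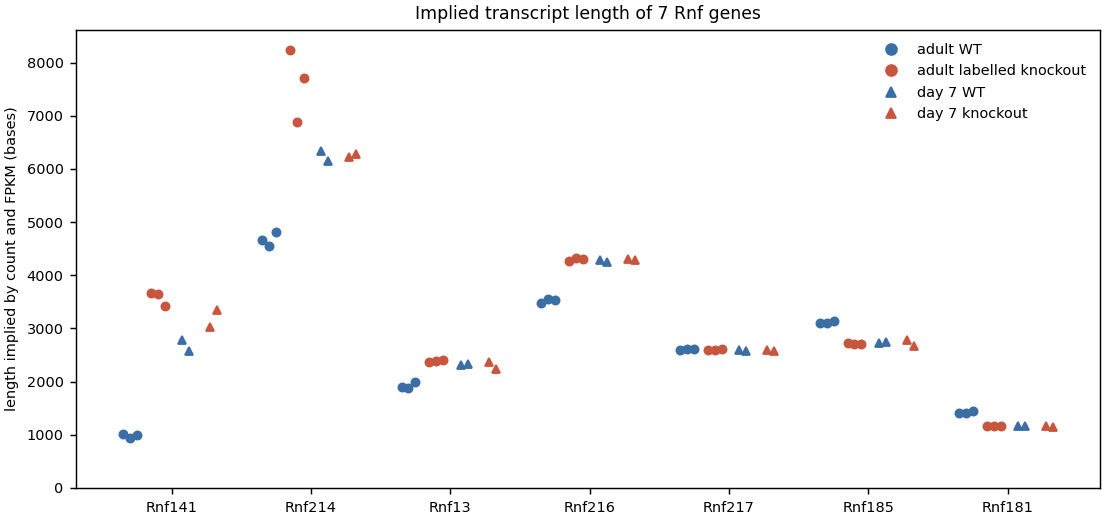
Transcript length implied by count and FPKM (bases, y axis) for 7 members in each adult sample (circles) and day 7 sample (triangles), WT in blue and knockout or labelled knockout in red. Rnf141 lies between 942 and 1017 bases in the 3 adult WT samples and at 2575 or above in the other 7 samples, and Rnf217 is shown as a member with nearly equal lengths in all samples.

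Genes that work with the members are given beside them, and the counts are to be read against the 81.5% of all genes that passed in adult testis, 40.9% higher and 40.6% lower. Of 36 ubiquitin-conjugating enzyme genes tested, 24 fell, 10 rose and 2 did not pass, at a median log2 fold change of −1.04, and the 3 with the highest mean FPKM, Ube2s, Ube2n and Ube2d2b, had log2 fold changes of −3.37, −3.24 and −5.63 (edgeR adjusted p = 0.000341, 6.5e-05 and 0.0147). Ube2n, the partner of Rnf8 and Rnf168, went from a scaled FPKM of 503, 592 and 548 to 41.8, 56.7 and 63.7. Of 8 genes of the damage response around Rnf8 and Rnf168, 5 fell, 1 rose and 2 did not pass. Of 17 genes of Polycomb repressive complex 1, the complex of Rnf2, 7 rose, 5 fell and 5 did not pass, and Bmi1 and Phc1 fell by 2.64 and 3.59 (edgeR adjusted p = 3.53e-05 and 2.7e-05). The linear ubiquitin partners Rbck1 and Otulin rose beside Rnf31, by 0.85 and 0.72 (edgeR adjusted p = 0.00164 and 0.00299), and Sharpin did not pass. Of 6 genes of the R-spondin pathway, which restrains Rnf43 and its relative Znrf3, 3 rose and 3 fell. Of 7 genes for ubiquitin and its activating enzymes 2 rose, 3 fell and 2 did not pass. The Trim genes, the other large RING family, were split with 23 rises and 20 falls of 49 tested.

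The 7 members that were not tested in adult testis were at low levels. Rnf152, Rnf165, Rnf182, Rnf183, Rnf207, Rnf224 and Rnf225 had scaled FPKM of at most 0.790 in any sample. Rnf182, Rnf183 and Rnf224 were lower in every labelled knockout sample. Rnf182 was at 0.697, 0.394 and 0.790 in the WT samples and 0.0471, 0.104 and 0.0706 in the labelled knockout samples, on 29, 15 and 32 and 3, 7 and 5 counts.

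In Sertoli cells at day 7, 63 of 78 members reached an FPKM of 0.5 in 2 or more samples and were tested, with 2 samples per group. No member passed at an adjusted p under 0.05 in edgeR, and neither did any of the 12880 genes tested (0%). The study itself reported genes higher and lower in this comparison under its stricter rule, and its methods name 3 individuals per genotype. With 2 samples per group here, a lack of calls does not show a lack of change. The smallest adjusted p of a member was 0.210. At an unadjusted p under 0.05 there were 7 members, 2 higher and 5 lower, which is 11.1% where 15.5% of all genes had such a p (8.52% higher and 6.99% lower). DESeq2 called 0 members after adjustment, where it called 4.51% of all genes (388 higher and 193 lower), and had 2 members at an unadjusted p under 0.05, and limma on log2(FPKM + 0.1) called 0 and had 8. The members' log2 fold changes lay between −0.88 and 0.89 with a median of −0.00, and no member exceeded 1 in size, where 5.24% of all genes did. The groups did not overlap in 30 members, 12 higher and 18 lower in the knockout samples, which is 47.6% where 51% of all genes did not overlap (24.8% higher and 26.1% lower). The knockout samples were farther from each other than the controls were, with a chi-square per degree of freedom of 34.3 against 2.65. Without the first knockout sample 4 members were called higher and 10 lower, without the second 9 and 14, and without either control none. Of those tested this was 21.5% without the first and 35.4% without the second, where 20.8% and 37.7% of all genes were called. Each of these fits takes the lone sample to vary like the other group. Of the 14 and 23 members called when one or the other knockout sample was left out, 6 were shared and 4 of those had the same direction.

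The members with the smallest p at day 7 were mostly lower in the knockout samples. Rnf149 had FPKM values of 31.28 and 29.00 in the control samples and 22.96 and 21.52 in the knockout samples (log2 fold change −0.40, standard error 0.09, edgeR unadjusted p = 0.0106 and adjusted p = 0.21). Rnf217 had 11.56 and 12.45 in the control samples and 9.06 and 9.29 in the knockout samples (log2 fold change −0.35, standard error 0.10, edgeR unadjusted p = 0.0199 and adjusted p = 0.248). Both knockout values lay below both controls in each gene, with the pairs close together. Rnf141 had 14.51 and 16.27 in the control samples and 10.65 and 9.72 in the knockout samples (log2 fold change −0.31, standard error 0.09, edgeR unadjusted p = 0.0195 and adjusted p = 0.246). Rnf138 had 10.91 and 11.96 in the control samples and 9.66 and 8.99 in the knockout samples (log2 fold change −0.26, standard error 0.11, edgeR unadjusted p = 0.0614 and adjusted p = 0.345). In counts these 4 differences were each under 0.5 on the log2 scale, and the knockout samples lay below the controls in each. For Rnf141 the log2 ratio of mean scaled FPKM was −0.56, larger than that of its counts, as its implied length was greater in both knockout samples. Of the members that were higher, Rnf225 had 0.65 and 0.65 in the control samples and 1.35 and 1.01 in the knockout samples (log2 fold change 0.89, standard error 0.27, edgeR unadjusted p = 0.0245 and adjusted p = 0.263) and Rnf39 had 1.26 and 1.27 in the control samples and 1.95 and 2.13 in the knockout samples (log2 fold change 0.73, standard error 0.25, edgeR unadjusted p = 0.0379 and adjusted p = 0.299), both near the lowest level tested.

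The 5 most highly expressed members in the day 7 controls were Rnf181, Rnf10, Rnf187, Rnf126 and Rnf4. Rnf181 had an FPKM of 227.50 and 226.08 in the control samples and 127.92 and 185.52 in the knockout samples (log2 fold change −0.50, standard error 0.19, edgeR unadjusted p = 0.0489 and adjusted p = 0.319), with the first knockout sample far below the second. Rnf10, which marks proteins of the small ribosomal subunit, had 122.24 and 114.37 in the control samples and 130.71 and 116.64 in the knockout samples, and its groups overlapped. Rnf187, a coactivator of Jun, had 84.47 and 85.64 in the control samples and 78.13 and 94.03 in the knockout samples, and Rnf126 had 77.50 and 81.25 in the control samples and 64.02 and 76.13 in the knockout samples. Rnf4 had 71.65 and 70.44 in the control samples and 72.31 and 62.91 in the knockout samples. After TMM scaling the groups overlapped in these 4 members, although the unscaled FPKM of Rnf126 did not. Their log2 fold changes were 0.10, 0.06, −0.14 and −0.03, with edgeR adjusted p of 0.673, 0.847, 0.585 and 0.915. Rnf7 came next, at 70.13 and 66.80 in the controls, and the nearest values of Rnf4 and Rnf7 were closer to each other than the controls of Rnf7 were.

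**Figure D4:**
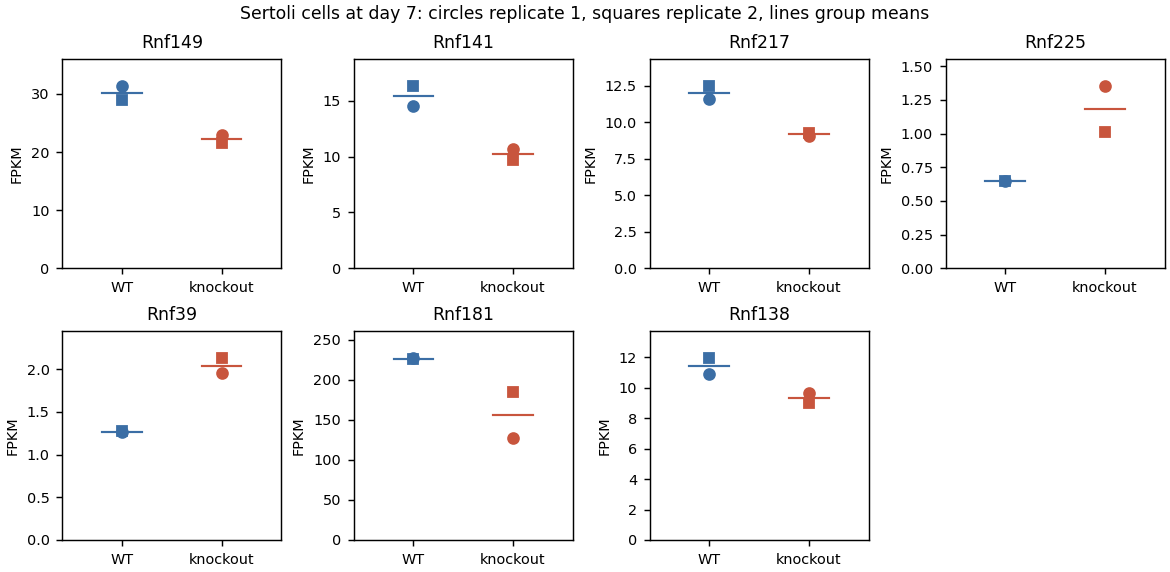
FPKM (y axes, each starting at 0) of 7 members in day 7 Sertoli cells, all among the 8 smallest unadjusted p-values among members whose groups did not overlap, with controls labelled WT in blue, knockout samples in red, circles for replicate 1, squares for replicate 2 and lines at group means. Of the members 5 lie lower and Rnf225 and Rnf39 higher in both knockout samples, and the knockout values of Rnf181, 127.92 and 185.52, are the farthest apart.

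None of the best-studied members passed at day 7. Rnf2 had 17.90 and 19.14 in the control samples and 18.62 and 15.64 in the knockout samples (−0.07 on the log2 scale, edgeR adjusted p = 0.814), Rnf8 had 11.49 and 11.59 in the control samples and 11.78 and 11.60 in the knockout samples (0.06, 0.826) and Rnf168 had 7.10 and 7.06 in the control samples and 6.56 and 6.42 in the knockout samples (−0.09, 0.703). Rnf31 had 9.65 and 9.81 in the control samples and 9.86 and 10.43 in the knockout samples (0.10, edgeR adjusted p = 0.649), and Rnf14 had 16.69 and 16.90 in the control samples and 15.66 and 21.13 in the knockout samples (0.18, edgeR adjusted p = 0.648). Rnf17, the germ cell protein, was still measurable at 1.51 and 1.62 in the control samples and 0.80 and 1.26 in the knockout samples (−0.43, edgeR adjusted p = 0.501), and 8 of 9 spermatogonium markers tested were likewise lower in both knockout samples. Rnf43 was at 0.20 and 0.18 in the control samples and 0.17 and 0.17 in the knockout samples, too low for a test. Of 15 Sertoli markers 10 were lower in both knockout samples, while all 6 fibroblast and all 5 peritubular myoid markers were higher in both, none past the adjusted threshold. The part that cell makeup had in the differences above was not tested.

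Several of the members with the largest falls in adult testis were at or near 0 in day 7 Sertoli cells. Rnf133 and Rnf148 are listed in the adult table alone. Rnf151 had 0 and 0 counts in the controls and 1 and 2 in the knockout samples, Rnf112 had 0 and 0 against 2 and 1, and Rnf138rt1 had 1 to 3 counts in each sample. Rnf32 had an FPKM of 0.39 and 0.39 in the control samples and 0.32 and 0.39 in the knockout samples, and Rnf212b at 0.48 and 0.49 in the control samples and 0.24 and 0.55 in the knockout samples. The day 7 table lists 5 of the 10 spermatid markers, with a summed scaled FPKM of 0.789 to 2.03. Rnf186 is listed at day 7 alone, with a single count in 1 sample. Rnf19b, Rnf19a, Rnf138, Rnf126 and Rnf139, in contrast, were expressed at day 7, with control FPKM of 33.94 and 32.86, 20.16 and 18.52, 10.91 and 11.96, 77.50 and 81.25 and 7.77 and 8.19.

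Of the 62 members tested in both tables, 11 were lower without overlap in both (17.7%, against 9.47% of the 12378 genes tested in both), 5 were higher without overlap in both (8.06% against 15.1%), and 8 lay apart in opposite directions (12.9% against 18.3%). These shares are descriptions, with no test. The tables were made from different cells at different ages and share no samples, and the difference between them was not tested. Rnf135, Rnf149, Rnf180 and Rnf217 lay lower in both knockout samples at day 7 and higher in adult testis. The log2 fold change of Rnf217, for instance, was −0.35 at day 7 and 1.74 in the adults. Rnf139, Rnf216, Rnf25 and Rnf185 lay higher in both knockout samples at day 7 on scaled counts, by 0.16 or less on the log2 scale, and lower in adult testis. The unscaled FPKM of Rnf139, Rnf25 and Rnf185 overlapped at day 7. In adult testis the scaled FPKM of Rnf185 overlapped too, and the gene was called higher with total-count scaling (0.66, edgeR adjusted p = 0.0019) and in limma (0.85 and 0.82), so that its direction depended on the scaling. The log2 fold changes at day 7 spanned less than 1 in either direction, where those of the same genes in adult testis reached −4.87 and 4.31.

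**Figure D5:**
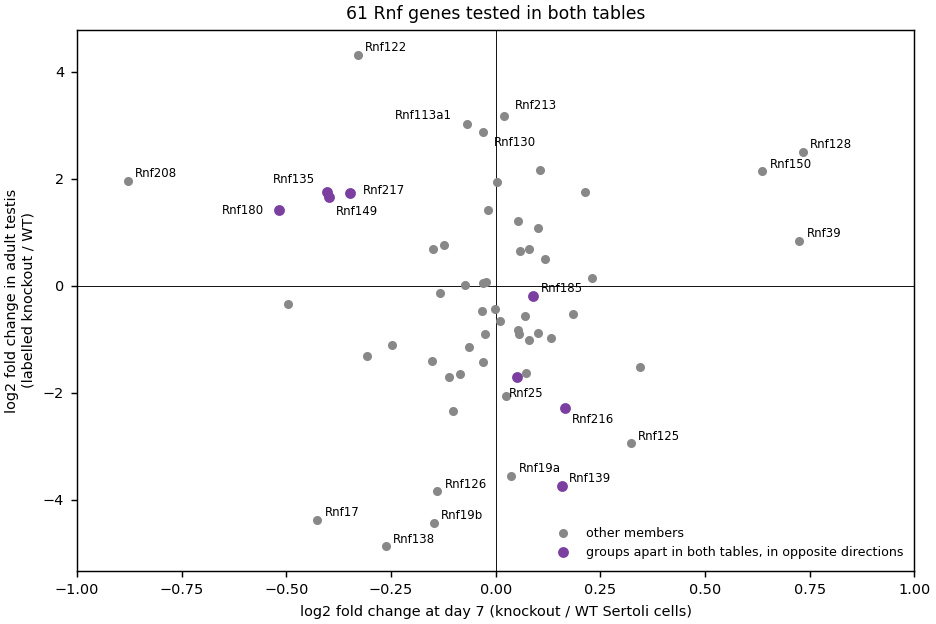
Log2 fold change of 61 of the 62 members tested in both tables, day 7 Sertoli cells on the x axis (from −1 to 1) and adult testis on the y axis. Purple points are the 8 members whose groups lay apart in both tables in opposite directions, and the spread along the y axis, from −4.87 to 4.31, is wider than that along the x axis.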

How the data were processed

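RNA-seq was measured in 4 samples of Sertoli cells at day 7 and in 6 adult testis samples. Both deposited tables hold expected counts, FPKM and TPM per gene, made by the authors. Per the study's methods RSEM gave the FPKM at day 7, and the methods name no tool for the counts and TPM. For the adult table the tool is not given in the sources used here. The submitters' processing notes name HISAT, Bowtie2 and GRCm38.p6, and versions and strand setting are not given in the sources used here. The deposited TPM values were not tested. Expected counts were rounded to whole numbers (11.1% to 11.6% of genes at day 7 and 10.7% to 13.2% in adult testis were not whole). Empty adult columns were not used, and 0 columns of samples stayed unmapped.

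Each table was fitted by itself across all its genes with edgeR 4.0.16 (quasi-likelihood test, TMM scaling, no covariate, R 4.3.3), after keeping genes with an FPKM of 0.5 or more in 2 samples at day 7 or 3 in adult testis. A call needed a Benjamini-Hochberg adjusted p under 0.05, and the study's own thresholds were a second rule. Alternatives were RLE and total-count scaling, DESeq2 1.42.0, limma 3.58.1 on log2(FPKM + 0.1) or log2(FPKM + 1), other filters, a replicate block and leaving out each sample. Members, lists and tests were chosen with earlier results of these data known. Given in full are, per table, the 10 largest rises and falls past the threshold without overlap (or up to 8 smallest p), the 5 highest members in the controls and Rnf2, Rnf4, Rnf8, Rnf14, Rnf17, Rnf31, Rnf43 and Rnf168. A member that these rules name is not reported here. Other members described with values were chosen after their values were seen. A search for the RING consensus in proteins was not run, since no protein table was used here. Promoter windows came from RefSeq and reference transcripts from GENCODE. Implied transcript lengths were count over FPKM and total count, as deposited. Tables and figures were made in Python 3.11.15 with pandas 2.3.3, numpy 2.4.6 and matplotlib 3.10.9.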

Additional observations from a re-analysis of the deposited data

Results flagged for a closer look

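In 8 members on TMM-scaled counts every knockout sample lay on one side of the controls at day 7 and every labelled knockout sample lay on the other side of the WT samples in adult testis. The tables hold different cells, ages and libraries, and the difference between them was not tested. These 8 are 12.9% of the 62 members tested in both tables, where 18.3% of all 12378 genes tested in both lay apart in this way. Higher in adult testis and lower at day 7 were Rnf135 (log2 fold change 1.74 and −0.40), Rnf217 (1.74 and −0.35), Rnf149 (1.66 and −0.40) and Rnf180 (1.41 and −0.52). Lower in adult testis and higher at day 7 were Rnf139 (−3.75 and 0.16), Rnf216 (−2.30 and 0.16), Rnf25 (−1.70 and 0.05) and Rnf185 (−0.20 and 0.09). None of the day 7 differences passed the edgeR adjusted threshold, and Rnf185 did not pass in adult testis either. In adult testis Rnf185 was called higher with total-count scaling (0.66) and in limma (0.85 and 0.82), and its scaled FPKM overlapped between the groups. At day 7 the unscaled FPKM of Rnf139, Rnf25 and Rnf185 overlapped.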

How the results depend on the processing

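In adult testis 23 members were called lower with total-count scaling, 24 in limma on log2(FPKM + 0.1), 25 in limma on log2(FPKM + 1) and 22 under the study's thresholds, which left 11 called higher. With total-count scaling 27 members lay apart as lower. The adult median log2 fold change was −0.81 with RLE scaling, 0.24 with total-count scaling and −0.86 at a mean FPKM of at least 1. Rnf14 reversed, to 0.33 with total-count scaling and to 0.38 and 0.36 in limma. At day 7 with total-count scaling 7 members lay apart as higher and the median was −0.041.

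Leaving out 1 sample gave 0 to 9 members higher and 0 to 14 lower at day 7, 15 to 30 and 20 to 33 without overlap, and a median of −0.030 to −0.0051. In adult testis it gave 19 to 24 higher, 34 to 40 lower, 22 to 27 and 40 to 42 without overlap, and a median of −0.66 to −0.51. With the replicate number as a block, 20 adult members were higher and 36 lower, and 0 at day 7. Same-numbered samples deviated together with r of 0.01 to 0.02 in adult testis and 0.04 at day 7. With 2 samples per group, r at day 7 has the same size for every pairing and differs only in sign. Whether same-numbered samples share more than a number cannot be told from these values. Day 7 rests on 2 samples per group. Adult group and cell makeup cannot be told apart.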
